A study of Mus musculus with 178 samples.

Results

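The 10 genes described here encode laminin chains and the proteins that link laminin to the rest of the basement membrane in mouse muscle. They are the laminin alpha chains Lama2, Lama4 and Lama5, the beta chains Lamb1 and Lamb2, the gamma chain Lamc1, the nidogens Nid1 and Nid2, perlecan (Hspg2) and agrin (Agrn). They were chosen by symbol, and all 10 were among the 24421 gene symbols of the 9 count tables and were followed in 178 RNA libraries. The tibialis anterior muscle was undamaged (called day 0) or had been injected with notexin, a venom myotoxin, 1 to 14 days earlier. Sorted wild-type populations were fibro-adipogenic progenitors (FAP, 32 libraries), endothelial cells (EC, 31), myogenic progenitors (MP, 16), inflammatory cells (27) and pericytes (10), and whole digested wild-type muscle (total muscle) gave 21 libraries. The same notexin course was sampled in CCR2KO mice, which lack the chemokine receptor Ccr2, for FAP (18 libraries), EC (14) and MP (9). Each population, genotype and day had between 1 and 6 libraries.

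Per the labels' protocols, FAP, EC, MP and inflammatory cells came from mice with an EGFP reporter of PDGFRa, on the wild-type B6 background or with the Ccr2 knockout. FAP were the EGFP-positive cells without CD45 and CD31, so the reporter defined them. EC carried CD31 without CD45, inflammatory cells CD45 without CD31, and MP carried alpha-7 integrin and VCAM without either. Pericytes came from wild-type B6 mice with a DsRed reporter of NG2 and were sorted without CD45, CD31 and Sca1, and total muscle came from wild-type B6 mice. The ages of the mice, and whether libraries of a group came from separate animals, are not given in the labels, so the tests weigh differences against a spread between libraries that may be partly technical.

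Laminins are cross-shaped trimers of 1 alpha, 1 beta and 1 gamma chain that assemble into a sheet on the cell surface. The alpha chain carries the main binding sites for receptors, integrins and dystroglycan among them, and Lama2 is the alpha chain of the muscle fibre basement membrane, whose loss causes a congenital muscular dystrophy. Lama4 and Lama5 are known from the basement membranes of blood vessels. Nidogens and perlecan tie the laminin sheet to the collagen IV network, and agrin binds laminin and dystroglycan and, at the neuromuscular junction, organises acetylcholine receptors.

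The libraries held 1236809 to 37740952 gene counts each (median 13736699). Of the 157 sorted libraries, 152 were closest in profile to their own population, and the other 5 stood apart. Library 3 of EC day 1 and library 5 of EC day 3 resembled FAP most, the first libraries of MP days 2 and 3 resembled inflammatory cells, and the first of MP day 10 resembled pericytes. The defining markers were present in each gate. The 6 FAP markers summed to 3459 CPM (counts scaled to a library sum of 1000000) or more in every wild-type FAP library, the 6 endothelial markers to 3489 CPM or more in EC and the 6 leukocyte markers to 4078 CPM or more in inflammatory cells. The 6 pericyte and smooth muscle markers reached at least 5729 CPM in pericytes and the 5 myogenic progenitor markers at least 451 CPM in MP. In MP, Chrdl2 and Calcr of those 5 were at 0 in some libraries. Pericyte libraries also held 438 to 3850 CPM of 5 Schwann cell markers, with a median of 1449 CPM, against a median of 32.5 CPM in EC and 14.1 CPM in FAP. The knocked-out gene Ccr2 had a median of at most 0.0831 CPM in each of the 3 CCR2KO populations, with 4 CCR2KO libraries at 1 CPM or more, against wild-type medians of 0.938 CPM in FAP, 5.47 CPM in EC and 4.58 CPM in MP. In all, 19 libraries are called doubtful below: 14 whose label code names another day than the title, and the 5 whose profile was closest to another population.

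The alpha chains were distributed differently over the muscle cell populations. Lama2 was highest in FAP and MP, Lama4 in FAP, EC and pericytes, and Lama5 in pericytes and EC, with MP lower and FAP close to none. Each was lowest, or next to lowest, in inflammatory cells. Levels are in CPM, given over all wild-type libraries of a population, and tests are edgeR's quasi-likelihood test on the wild-type libraries of days 0, 1, 2, 3, 5 and 10, the days that all 5 sorted populations share.

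Lama2 ranged from 162 to 1918 CPM (median 423) in FAP and from 15.5 to 996 CPM (median 395) in MP. In pericytes it ranged from 63.5 to 603 CPM (median 195), and in EC from 4.96 to 375 CPM (median 43.8). Inflammatory cells held 0.145 to 32.2 CPM (median 4.55). The ranges of FAP, MP and pericytes overlapped, and all inflammatory libraries lay below every FAP and pericyte library. Against the mean of the other 4 populations Lama2 was higher in FAP (log2 fold change 3.49, SE 0.31, adjusted p = 7.77e-15), while MP and pericytes, next in order, did not differ past the threshold (log2 fold change -0.31, SE 0.50, adjusted p = 0.803).

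Lama5 showed the steepest contrast between stromal and vascular cells. In FAP it ranged from 0 to 41.5 CPM (median 2.51), with 1 of 32 libraries at 0 counts, and in inflammatory cells from 0.291 to 32.8 CPM (median 4.55). EC held 113 to 796 CPM (median 363) and pericytes 217 to 1006 CPM (median 426). Every EC and pericyte library lay above every FAP and inflammatory library, and the highest FAP library was the first of day 4, with the next FAP value at 13.9 CPM. The difference of FAP from EC was -7.38 ± 0.58 on the log2 scale (± SE, adjusted p = 1.02e-16), and that of EC from pericytes did not pass the test (log2 fold change -0.07, SE 0.34, adjusted p = 1). MP held an intermediate 44.7 to 549 CPM (median 127), above FAP (log2 fold change -5.84, SE 0.53, adjusted p = 1.29e-13 for FAP minus MP) and below EC (log2 fold change 1.53, SE 0.35, adjusted p = 0.000262 for EC minus MP).

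Lama4 was the alpha chain that FAP and vascular cells shared. It ranged from 327 to 1160.2 CPM (median 733) in FAP, 308 to 795 CPM (median 559) in EC and 241 to 777 CPM (median 458) in pericytes. MP held only 2.76 to 142 CPM (median 28.2), and inflammatory cells 0.873 to 60.4 CPM (median 8.26). The first 3 ranges overlapped and none reached down to the highest MP library. FAP and EC did not differ past the threshold (log2 fold change 0.62, SE 0.27, adjusted p = 0.0506), nor did EC and pericytes (log2 fold change 0.31, SE 0.33, adjusted p = 0.533), whereas Lama4 was lower in MP than in FAP (log2 fold change 5.01, SE 0.47, adjusted p = 2.77e-13 for FAP minus MP).

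The sequences around the start sites of Lama2 and Lama5 are shown because their highest levels lay in different populations, and those of Lamb1 and Lamb2 because the balance of these chains is followed across the days. Each is 300 bases of GRCm38.p6 from RefSeq, 250 before and 50 after the annotated start, 5′ to 3′ on the gene's strand, with the GC box GGGCGG (or its reverse complement) in capitals.
Lama2, chr10:27616893-27617192, minus strand: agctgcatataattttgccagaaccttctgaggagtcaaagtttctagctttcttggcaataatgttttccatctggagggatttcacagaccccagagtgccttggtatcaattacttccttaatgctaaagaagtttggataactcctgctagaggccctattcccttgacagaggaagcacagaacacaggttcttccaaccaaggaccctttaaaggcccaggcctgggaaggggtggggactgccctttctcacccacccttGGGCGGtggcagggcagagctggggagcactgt
Lama5, chr2:180225810-180226109, minus strand: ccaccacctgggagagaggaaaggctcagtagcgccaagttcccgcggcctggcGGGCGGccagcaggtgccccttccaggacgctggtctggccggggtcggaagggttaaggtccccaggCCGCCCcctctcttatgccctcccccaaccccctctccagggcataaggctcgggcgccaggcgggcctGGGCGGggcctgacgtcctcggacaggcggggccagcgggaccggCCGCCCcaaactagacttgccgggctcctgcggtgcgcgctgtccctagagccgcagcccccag
Lamb1, chr12:31265043-31265342, plus strand: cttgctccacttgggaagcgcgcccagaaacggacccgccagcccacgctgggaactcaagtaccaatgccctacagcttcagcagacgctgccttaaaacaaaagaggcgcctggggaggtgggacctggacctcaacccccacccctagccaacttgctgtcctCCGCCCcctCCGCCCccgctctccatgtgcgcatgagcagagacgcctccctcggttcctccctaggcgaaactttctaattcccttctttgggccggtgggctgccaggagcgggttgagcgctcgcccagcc
Lamb2, chr9:108479612-108479911, plus strand: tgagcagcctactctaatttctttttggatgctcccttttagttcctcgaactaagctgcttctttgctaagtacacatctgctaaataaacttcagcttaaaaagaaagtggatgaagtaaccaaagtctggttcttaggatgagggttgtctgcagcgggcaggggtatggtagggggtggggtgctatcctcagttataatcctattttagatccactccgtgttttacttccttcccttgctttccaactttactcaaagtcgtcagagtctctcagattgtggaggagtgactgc

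Entries for 7 of the 10 members were matched. The Lama5 window held 4 GC boxes, that of Lamb1 2, that of Lama2 1 and that of Lamb2 none, and 35.7% of all 32851 promoter windows held at least 1. TATAAA was in none of the 4 windows and in 13.6% of all. The Lama5 window had 72.7% G and C and the Lama2 window 50.3%, against a median of 52.7% over all windows. These matches describe letters and not factor binding. The RefSeq start used for Lama2 lies inside the longer GENCODE gene model (chr10:26980036-27619758, minus strand). In that annotation (M21, GRCm38) Lama5 spans chr2:180176373-180225859 on the minus strand, Lamb1 chr12:31265234-31329644 and Lamb2 chr9:108479736-108490530, both on the plus strand.

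**Figure D1:**
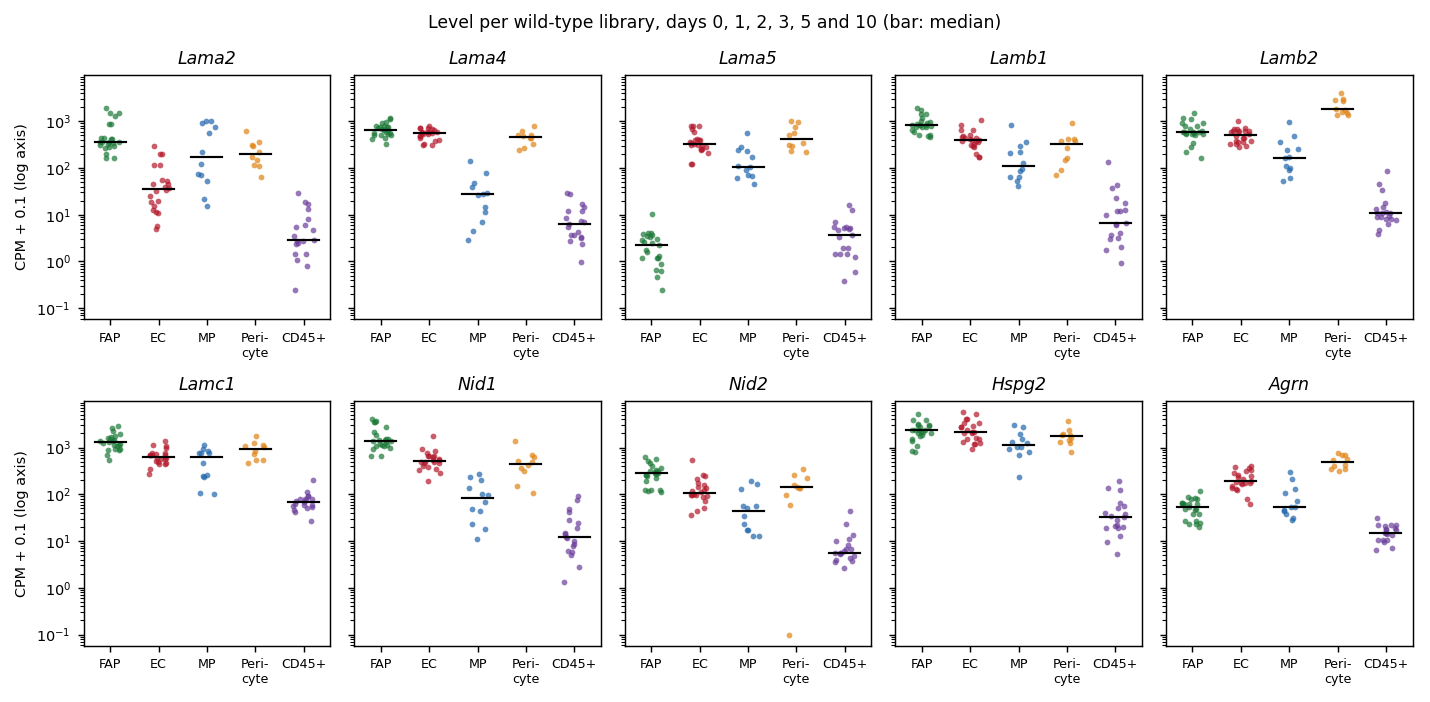
Level of each of the 10 genes per wild-type library in the 5 sorted populations on the 6 shared days (CPM + 0.1, log axis; points are libraries, bars are medians). Lama5 in FAP lies near 2.51 CPM, far below EC and pericytes, and Lamb2 in pericytes lies at 1345 CPM or more.

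Both beta chains were present in every non-leukocyte population, with Lamb1 highest in FAP and Lamb2 highest in pericytes. Lamb1 ranged from 458 to 2263 CPM (median 902) in FAP, 168 to 1049.7 CPM (median 433.6) in EC, 71.8 to 895 CPM (median 318) in pericytes and 41.6 to 819.9 CPM (median 214) in MP, and these ranges overlapped. FAP stood above EC (log2 fold change 1.46, SE 0.28, adjusted p = 1.39e-05), and EC and pericytes did not differ past the threshold (log2 fold change 0.60, SE 0.34, adjusted p = 0.171).

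Lamb2 ranged from 1345 to 3927 CPM (median 1818) in pericytes, from 162 to 1694 CPM (median 577) in FAP, from 270.1 to 999 CPM (median 529.8) in EC and from 53.1 to 939 CPM (median 205) in MP. The pericyte range lay above that of EC and MP and overlapped FAP through 1 undamaged and 1 day 14 FAP library. Pericytes exceeded FAP (log2 fold change -1.47, SE 0.28, adjusted p = 1.77e-05 for FAP minus pericytes), and FAP and EC did not differ past the threshold (log2 fold change 0.36, SE 0.22, adjusted p = 0.198). Counted per kb of exon so that genes can be compared, pericytes held 338 CPM per kb of Lamb2 against 37.9 of Lamb1, while FAP held 105 against 108.7 (means of the 6 day means).

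Lamc1, the gamma chain shared by most laminins, was the least divided of the chains. It ranged from 539.8 to 2922 CPM (median 1447) in FAP, 474 to 1726 CPM (median 939.6) in pericytes, 99.3 to 1156 CPM (median 736) in MP and 267 to 1392 CPM (median 694) in EC. Inflammatory cells still held 27.1 to 200.2 CPM (median 70.8), the highest level of any laminin chain in that population per kb of exon (8.32 CPM per kb, next Lamb2 at 3.25). FAP exceeded pericytes (log2 fold change 0.97, SE 0.23, adjusted p = 0.000502), and EC and pericytes did not differ past the threshold (log2 fold change -0.37, SE 0.21, adjusted p = 0.168).

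The nidogens were highest in FAP, perlecan was at similar levels in FAP and EC, and agrin was highest in pericytes. Nid1 ranged from 661 to 4111 CPM (median 1516) in FAP, 196 to 1726 CPM (median 569.7) in EC, 105 to 1394 CPM (median 453) in pericytes and 10.8 to 278 CPM (median 108.6) in MP. All MP libraries lay below all FAP libraries, and FAP exceeded EC by 1.91 ± 0.26 on the log2 scale (± SE, adjusted p = 1.01e-08). Nid2 was lower per kb of exon than Nid1 in each of these 4 populations, at 59.7 against 301 CPM per kb in FAP and 14.1 against 16.6 in MP. It ranged from 111 to 645 CPM (median 301) in FAP and 0 to 353 CPM (median 140.4) in pericytes, where the 1 library at 0 (day 3 library 1) was also the shallowest of the series. Nid2 overlaps Rtraf on the other strand, and since the strand setting of the counting is not stated, its counts may hold reads of that gene. Lama2, Lamc1 and Nid1 overlap noncoding or pseudogene models in the same way.

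Perlecan (Hspg2) had similar ranges in FAP, at 810.5 to 5189 CPM (median 2362), and EC, at 627 to 5754 CPM (median 2404), and was 805 to 3656 CPM (median 1720.0) in pericytes and 229 to 3369 CPM (median 1201) in MP. None of FAP minus EC (0.12 ± 0.26, adjusted p = 0.834), EC minus pericytes (0.58 ± 0.32, 0.15) and MP minus pericytes (-0.63 ± 0.34, 0.159) passed the test (log2 ± SE). Agrin was highest in pericytes, at 319 to 772 CPM (median 482), and next in EC, at 61.2 to 483 CPM (median 234). MP held 27.8 to 293 CPM (median 62.9) and FAP 20.01 to 149 CPM (median 57.6), and these did not differ past the threshold (log2 fold change -0.12, SE 0.21, adjusted p = 0.788). Pericytes exceeded EC (log2 fold change -1.17, SE 0.21, adjusted p = 6.17e-06 for EC minus pericytes). The part of the Schwann cell markers, present in every pericyte library, in the pericyte levels was not tested.

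Counted against the mean of the other populations, 8 of the 10 genes, perlecan among them, were higher in FAP and 2, Lama5 and Agrn, were lower. Of the 17134 genes tested, 42.2% were called, 28.4% higher and 13.8% lower. The median log2 fold change of the members was 2.43 against 0.08 over all genes. In EC, 9 were higher and Lama2 lower (38% of all genes called, 23.5% higher and 14.5% lower; median 1.38 against -0.01), the Lama2 call being lost without the pericyte library of day 5 (-0.71). In pericytes, 9 were higher (36.5% called, 17.4% higher; median 1.24 against -0.21), and Lamb1 was not called (log2 fold change 0.63, SE 0.28, adjusted p = 0.069). In MP, Lama2 and Lama5 were higher and 6 were lower (36.7% called, 19.5% higher and 17.2% lower; median -0.56 against -0.10), with Lamb1 (-0.51 ± 0.28) and Hspg2 (0.31 ± 0.25) not called. In inflammatory cells all 10 were lower (47.7% called, 21.1% lower; median -4.43 against -0.11). For each other population, the mean compared against included these low inflammatory levels. A call as higher therefore does not place a gene above every other population. Nid1, for example, was called higher in EC (1.52) and pericytes (1.01), though FAP exceeded EC. With a label code shared across populations, whose meaning is not known, as a block, 4 genes were higher in pericytes and 1 in MP. That fit held only libraries with such a code, in pericytes those of days 1, 2, 3 and 5, with none undamaged or of day 10. Without pericyte day 3 library 2, the other pericyte library of that day being the one with no Nid2 count, the Nid2 estimate in pericytes turned to -1.07 and its calls in MP (-0.65) and inflammatory cells (-2.92) were lost. In MP the Lama2 call was lost without the pericyte library of day 5 (0.67) and the Lamc1 call without that of day 1 (-0.48). Each was the only pericyte library of its day. These omissions, that for Lama2 in EC among them, therefore took the day out of the contrast for every population. With day 5 went the single MP library of that day, doubtful for its label code, which held the highest MP level of Lama2 (996 CPM). Between EC and pericytes 3 of 10 genes differed (38.9% of all genes called, 16.1% lower in EC), Lama2, Lamb2 and Agrn, each lower in EC.

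Among the other laminin chains, Lama1 had a median under 1 CPM in every population. Lama3 was higher in EC (4.90, median 45.5 CPM) and Lamc3 in pericytes (2.90, median 7.81 CPM) and MP (2.46, median 3.84 CPM), all as log2 fold changes against the other populations. In undamaged MP the mean levels of Lamc3 (189 CPM) and Lama3 (99.6 CPM) were higher, and both fell on day 1 (log2 fold changes -5.66 and -5.79), on day 3 (-6.03 and -8.94) and on days 4 to 7 (-8.32 and -6.33). Of 15 other basement membrane genes, 13 were higher and 1 lower in FAP, 8 higher and 3 lower in EC, 15 higher in pericytes, 1 higher and 8 lower in MP, and 12 lower in inflammatory cells. The collagen IV chains Col4a1 (3.05) and Col4a2 (3.05) were among the EC genes, Col4a6 (5.68) among those of pericytes and Col4a4 (3.15) among those of FAP. Tinagl1, a basement membrane protein, stood at -5.29 in FAP and 4.56 in EC.

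Laminin receptors split by population too. Of 15 listed, 4 were higher and 6 lower in FAP, 7 higher and 3 lower in EC, 12 higher in pericytes and 6 higher and 2 lower in MP. Bcam, a receptor of Lama5, was lower in FAP (-5.47) and higher in EC (3.97) and pericytes (5.02), and integrin alpha-6 (Itga6) was lower in FAP (-3.52) and higher in EC (3.95). Dystroglycan (Dag1) was higher in MP (2.09), as was alpha-sarcoglycan (Sgca, 4.69), whereas Itga7 there is part of the gate and no finding. All 4 genes of the agrin signalling list were higher in MP, Rapsn by 5.96, Dok7 by 4.82, Musk by 4.28 and Lrp4 by 0.92, while Agrn itself was lower there (-0.62). Of 16 genes of dystroglycan glycosylation, 11 were higher in FAP, and 3 were higher and 1 lower in MP.

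In FAP, Lama2 and several of its partners fell early after injury and overlapped their undamaged levels again later. Lama2 and Nid1 were lower on days 1 and 3 than in undamaged muscle, Lamb1 and Nid2 on day 1, and Lamb2 and Lamc1 on day 3. No member was called higher or lower on days 10 to 14. Lama4, Hspg2 and Agrn were not called in any window against day 0. All windows share the 3 undamaged libraries, so their estimates are not independent.

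Lama2 was 891, 1308 and 1918 CPM in the 3 undamaged libraries. On day 1 the 4 libraries held 288, 356, 429 and 439 CPM, and on day 3 the 6 libraries held 162 at the lowest, 303 at the median and 418 CPM at the highest. Every library of days 1 and 3 lay below every undamaged one. The fall was -1.91 ± 0.37 on day 1 (log2 ± SE, adjusted p = 0.000399) and -2.11 ± 0.33 on day 3 (adjusted p = 6.09e-05). On days 4 to 7 the 8 libraries ranged from 389 to 1068 CPM, and on days 10 and 14 the 5 libraries from 367 to 1663 CPM, both overlapping the undamaged range.

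Nid1 followed the same course at a higher level. It was 2103, 3562 and 4111 CPM undamaged, 1091, 1296, 1427 and 1520.3 CPM on day 1, and 958 at the lowest, 1291 at the median and 1815 CPM at the highest on day 3. All libraries of days 1 and 3 were below the undamaged ones (log2 fold change -1.34, SE 0.31, adjusted p = 0.00203 on day 1; log2 fold change -1.21, SE 0.28, adjusted p = 0.0028 on day 3). Days 10 and 14 ranged from 1363 to 3968 CPM.

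Lamb2 was 1111, 1153 and 1493 CPM undamaged, 571, 574, 595 and 783 CPM on day 1 and 162 at the lowest, 524 at the median and 583 CPM at the highest on day 3. No library of day 1 or day 3 reached the undamaged range, but the test passed for day 3 (log2 fold change -1.39, SE 0.44, adjusted p = 0.0263) and not for day 1 (log2 fold change -1.04, SE 0.49, adjusted p = 0.117). The single library of day 5, called doubtful for its label code, held 222 CPM. Lamc1 was 1457, 2619 and 2922 CPM undamaged and 539.8 at the lowest, 1012 at the median and 1362 CPM at the highest on day 3, all below the undamaged libraries (log2 fold change -1.11, SE 0.32, adjusted p = 0.0153).

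Lamb1 and Nid2 were lower on day 1. Lamb1 was 663, 985 and 1403 CPM undamaged and 458, 488, 598 and 743 CPM on day 1, where the groups overlapped by 1 library (log2 fold change -0.87, SE 0.28, adjusted p = 0.021). By day 6 its 3 libraries held 1516, 1568 and 2263 CPM, all above the undamaged ones, though the window of days 4 to 7 did not pass (log2 fold change 0.77, SE 0.27, adjusted p = 0.0573). Nid2 was 195, 259.7 and 356 CPM undamaged and 111, 120.0, 122.4 and 125 CPM on day 1, with no overlap (log2 fold change -1.22, SE 0.34, adjusted p = 0.009). Its 3 libraries of day 6 held 582, 606 and 645 CPM, again above the undamaged ones, and days 4 to 7 together did not pass (log2 fold change 0.85, SE 0.33, adjusted p = 0.0856).

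On day 1, 4 members were lower (26.2% of all tested genes were called, 13.7% lower; median of the 10 members -0.96 against -0.07 over all genes), on day 3 also 4 (18.9%, 7.69% lower; -0.58 against 0.05), on days 4 to 7 none (12.7%; 4 at an unadjusted p under 0.05, and 3 called by DESeq2), and on days 10 to 14 none (0.447%; none at an unadjusted p under 0.05 and none called by DESeq2). Over all days 8 of the 10 varied, against 40.5% of all genes, with Lamb2 (adjusted p = 0.0828) and Hspg2 (0.224) the exceptions. The Lama2 and Nid1 calls held when any 1 library was left out. On day 1 the Lamb1 call was lost without undamaged library 3 or day 1 library 1 or 4 (log2 fold change -0.78 to -0.57) and that of Nid2 without undamaged library 3 (-0.96), which leaves 2 calls. On day 3 the Lamb2 call was lost without undamaged library 2 or day 3 library 4 or 5 (-1.29 to -1.21) and that of Lamc1 without undamaged library 2 or 3 (-1.05 to -0.96), which leaves 2 calls without undamaged library 2. As single libraries were left out, 0 to 4 were called on days 4 to 7.

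The labels carry codes with or without the tag R52, which the labels do not explain, and both kinds were present in undamaged FAP. Among libraries with the tag, Lama2 differed from day 0 by -2.15 on day 1 and -2.80 on day 3 (mean log2 CPM, 3 and 2 libraries against 2). Among those without it, the difference was -1.05 and -1.48 (1 and 4 libraries against 1). For Nid1 these were -1.57 and -1.68 with the tag and -0.56 and -0.64 without it. Lamb1 on day 1 was -1.10 with and -0.15 without, Nid2 on day 1 -1.31 and -0.81, Lamb2 on day 3 -2.58 and -1.07, and Lamc1 on day 3 -1.97 and -0.40. All of these differences were negative in both kinds of library.

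**Figure D2:**
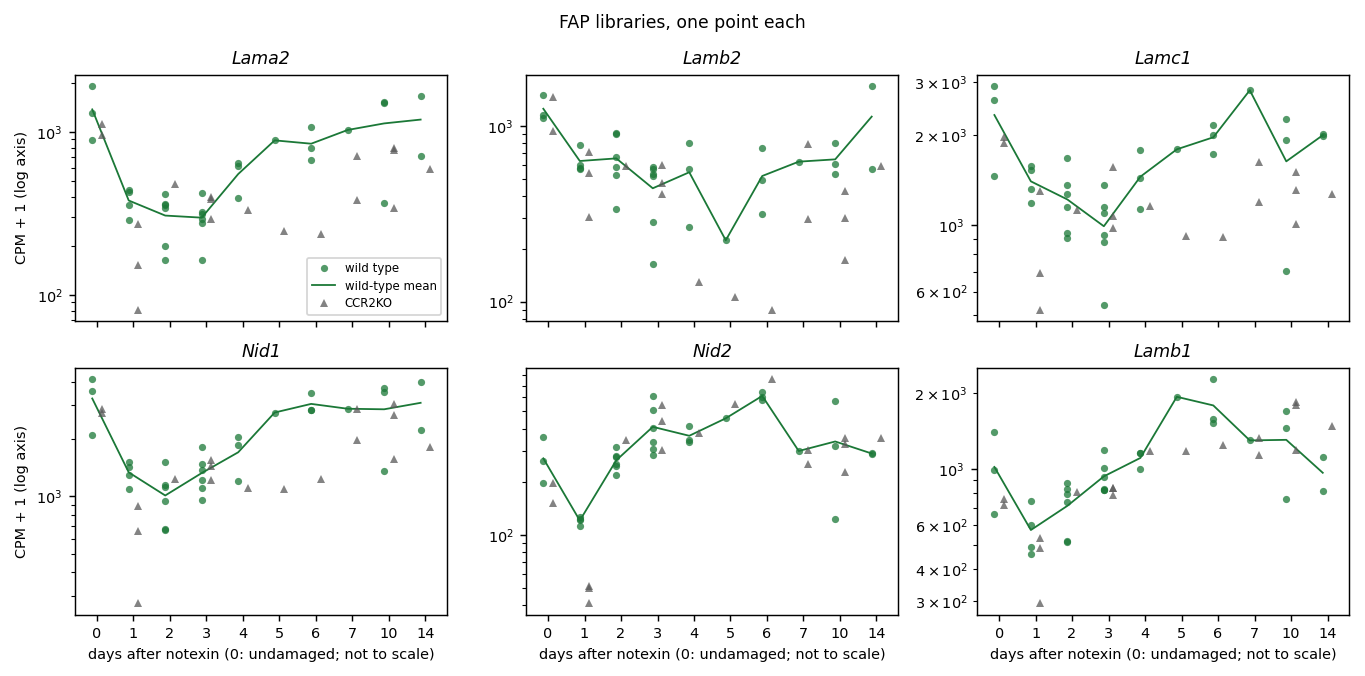
Levels in FAP libraries by day after notexin (CPM + 1, log axis; circles are wild-type libraries, triangles CCR2KO libraries, the line joins wild-type means). Wild-type Lama2 drops from 891 to 1918 CPM undamaged to 162 to 418 CPM on day 3.

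Other basement membrane genes fell with the members in FAP. Of 15, 10 were lower on day 1 and 7 on day 3, with none higher, and the largest falls on day 1 were those of Col4a3 (-4.90), Col4a4 (-2.98), Col4a5 (-2.77) and Col15a1 (-2.76). Of 15 laminin receptors, 6 were lower on day 1, among them Itgb4 (-2.90) and Itga6 (-1.57), and on day 3 Utrn (-2.05) and Dmd (-1.60) were lower and Itga7 higher (1.62). On days 10 to 14 none of these genes was called.

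In EC, the beta chain Lamb1 and the nidogen Nid2 rose after injury, and no member was called lower. Lamb1 was 168, 169.8, 199 and 322 CPM in the 4 undamaged libraries. On day 3 the 5 libraries held 284, 299.7, 384, 413 and 1049.7 CPM, and on days 4 to 7 the 10 libraries ranged from 372 to 753 CPM. All libraries of days 4 to 7 lay above the undamaged ones, and day 3 overlapped them. The rise was 1.37 ± 0.31 on day 3 (log2 ± SE, adjusted p = 0.0116) and 1.59 ± 0.29 on days 4 to 7 (adjusted p = 0.00954).

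Nid2 was 36.1, 44.2, 51.4 and 121 CPM undamaged, 71.9, 94.5, 97.7, 102 and 529 CPM on day 3 and 134 to 361 CPM on days 4 to 7. The libraries of days 4 to 7 were all above the undamaged ones. The highest on day 3 was library 5, whose profile was closest to FAP and whose FAP markers summed to 5654 CPM. Nid2 was called on day 3 (log2 fold change 1.72, SE 0.47, adjusted p = 0.0292) and on days 4 to 7 (log2 fold change 1.78, SE 0.44, adjusted p = 0.0395). The day 3 call was lost without that library (0.76) and without undamaged library 1, 3 or 4 (up to 1.61), and the call on days 4 to 7 was lost on leaving out any of 20 of the 31 libraries (1.60 to 1.79, adjusted p 0.0505 to 0.162). The Lamb1 call on day 3 was lost without undamaged library 1 or 3 (1.24 and 1.32), and its call on days 4 to 7 held whichever library was left out. With the R52 tag Lamb1 differed on day 3 by 1.79 and Nid2 by 2.50 (mean log2 CPM, 2 libraries against 2), and without it by 0.49 and 0.16 (3 against 2). Library 5, closest to FAP in profile, is 1 of the 2 tagged libraries of day 3.

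In EC, 0 members were called on day 1 (5.4% of all genes; 3 at an unadjusted p under 0.05 and 2 by DESeq2), 2 higher on day 3 (6.43%, of all genes 4.72% higher), 2 higher on days 4 to 7 (1.23%, 0.641% higher) and 0 on days 10 to 14 (0%; 2 at an unadjusted p under 0.05 and 0 by DESeq2). Across days Lamb1 (adjusted p = 0.0435) and Agrn (0.0293) varied (7.64% of all genes), a count that ranged from 0 to 3 as single libraries were left out. Agrn was 124, 173, 195 and 322 CPM undamaged, 61.2, 80.9 and 137 CPM on day 1 and 172 to 483 CPM on days 4 to 7, so day 1 was low and overlapped day 0 by 1 library. Of 15 other basement membrane genes, 4 were higher on days 4 to 7, Col15a1 (2.40), Col18a1 (1.58), Col4a1 (1.19) and Col4a2 (1.14), and on day 3 4 were higher and 1 lower.

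Lama2 in EC moved with markers of other cells. It exceeded 100 CPM in 8 of 31 wild-type libraries, and the 4 highest, day 7 library 2 (375 CPM), day 3 library 5 (289), day 0 library 2 (201) and day 1 library 3 (194), were also the 4 with the highest sums of the 6 FAP markers, 2537, 5654, 4101 and 4012 CPM, against 1027 CPM or less elsewhere. Day 7 library 2 also held 28931 CPM of 6 myofibre markers. The part of these cells in the EC values was not tested.

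In MP, Lama2 and Lamc1 were lower on days 1 and 3, Lamb1 on day 1, Lamb2 and both nidogens on day 3, and Lamb1 and Nid2 were higher on days 4 to 7. Lama2 was 559, 739.6 and 918 CPM undamaged, 70.8 and 119 CPM on day 1, 51.7 and 75.6 CPM on day 2 and 15.5 and 21.2 CPM on day 3. On day 5 the single library, one of those called doubtful for its label code, held 996 CPM. The 6 libraries of days 1 to 3 were all below the 3 undamaged ones. The log2 change was -3.05 ± 0.56 on day 1 (adjusted p = 0.00443) and -5.10 ± 0.62 on day 3 (adjusted p = 0.000444).

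Lamc1 was 849, 909 and 1156 CPM undamaged, 262 and 472 CPM on day 1 and 99.3 and 107 CPM on day 3, with no overlap (log2 fold change -3.01, SE 0.40, adjusted p = 0.000604 on day 3). Nid1 was 95.4, 102 and 135 CPM undamaged and 10.8 and 18.1 CPM on day 3 (log2 fold change -2.71, SE 0.57, adjusted p = 0.00498). Lamb2 was 240.3, 250.5 and 472 CPM undamaged and 53.1 and 91.3 CPM on day 3 (log2 fold change -1.92, SE 0.66, adjusted p = 0.0446). Neither Nid1 nor Lamb2 overlapped between these days, and Nid2 was lower on day 3 too (log2 fold change -1.40, SE 0.39, adjusted p = 0.0195).

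Lama5 was not called. It was 61.3, 70.0 and 108.7 CPM undamaged, 44.7 and 66.9 CPM on day 1, 89.7 and 238 CPM on day 3 and 281 and 549 CPM on day 10, and no window passed the test, day 10 being nearest (log2 fold change 2.45, SE 0.50, adjusted p = 0.0586). Both day 10 libraries lay above the undamaged ones. Lamb1 was 84.9, 93.1 and 217 CPM undamaged and 221 to 819.9 CPM in the 5 libraries of days 4 to 7, all above (log2 fold change 1.84, SE 0.36, adjusted p = 0.0124), and Nid2 was 51.0, 55.8 and 56.1 CPM and 149 to 218 CPM (log2 fold change 1.57, SE 0.32, adjusted p = 0.0162). Agrn was 37.5, 53.0 and 71.5 CPM undamaged and 207 and 293 CPM on day 10 (log2 fold change 2.25, SE 0.41, adjusted p = 0.0362). The first day 10 library is doubtful, being closest in profile to pericytes, where Lama5 and Agrn had their highest medians. The part of such cells in the day 10 values was not tested.

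On day 1, 3 members were lower (16.1% of all genes called, 6.47% lower; median -1.23 against -0.24 over all genes), on day 3, 5 lower (32.1%, 14.5% lower; -1.37 against -0.11), on days 4 to 7, 2 higher (6.03%, 3.49% higher; 0.43 against -0.17), and on day 10 Agrn higher (0.492%, 0.447% higher; 1.27 against 0.21). Over all days 8 varied (16.5%). These calls rest on few libraries. All 3 undamaged MP libraries carried the R52 tag and both of day 3 lacked it, while days 1, 2 and 10 held both kinds. With the tag as a covariate, Lama2 (-4.29), Lamc1 (-3.05), Nid1 (-3.69) and Lamb2 (-3.03) were still called lower on day 3 and Nid2 was not (-1.35). The covariate is estimated from days 1, 2 and 10 alone. There the untagged libraries of days 2 and 10 are doubtful, with profiles closest to other populations. This fit therefore cannot separate the tag from other differences between those libraries. Among libraries with the tag, Lama2 differed by -2.60 on day 1 (mean log2 CPM, 1 library against 3), Lamb1 by 2.37 and Nid2 by 1.91 on days 4 to 7 (3 against 3) and Agrn by 1.98 on day 10 (1 against 3). Undamaged libraries 1 and 2 and the day 4 library had over 40% of their counts outside genes, and without these libraries 0 members were called on day 1, 2 on day 3, 0 on days 4 to 7 and 0 on day 10. That left library 3 as the only undamaged one. Of the calls then lost, 3 had smaller estimates than with all libraries. These were Lamb1 on days 4 to 7 (1.04 against 1.84), Agrn on day 10 (1.88 against 2.25) and Nid2 on day 3 (-1.27 against -1.40). The other estimates, among them Lama2 on day 1 (-3.33) and Nid1 on day 3 (-2.96), were as large as with all libraries. The day 3 falls of Lama2, Lamc1 and Nid1 held when any 1 library was left out, whereas that of Lamb2 was lost in 8 of 16 such fits (-2.42 to -1.56) and that of Nid2 without undamaged library 1 or 2 or day 3 library 1 (-1.37 to -1.04). The day 1 falls of Lama2 (-2.83) and Lamc1 (-1.24) were lost without day 1 library 1, which leaves 0 calls, and that of Lamb1 in 13 fits (-1.61 to -0.84), while without day 2 library 1 there were 5. The rises of Lamb1 (1.61 and 1.66) on days 4 to 7 were lost without undamaged library 1 or 2, those of Nid2 (1.51 to 1.61) without any of the 3, and that of Agrn on day 10 in 11 fits (1.70 to 2.49).

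Markers of other cells moved with the MP days. The 6 leukocyte markers summed to 4813 CPM in day 2 library 1, 5346 in day 3 library 1 and 1033 in day 3 library 2, against 324 CPM or less in the other 13, with none of the 6 at 0 in any wild-type MP library. The myofibre markers reached 12193 CPM in day 1 library 1 and 34519.8 in day 10 library 1. That library also held 3811 CPM of Schwann cell markers, against 107 in the other of day 10. The part of these cells in the MP values was not tested. Other basement membrane genes were lower as well, 5 of 15 on day 3 with none higher, led by Col4a1 (-4.60) and Col15a1 (-4.52). Of the agrin signalling genes, Dok7 (4.06) and Lrp4 (1.82) were higher and Musk (-2.28) lower on day 3.

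**Figure D3:**
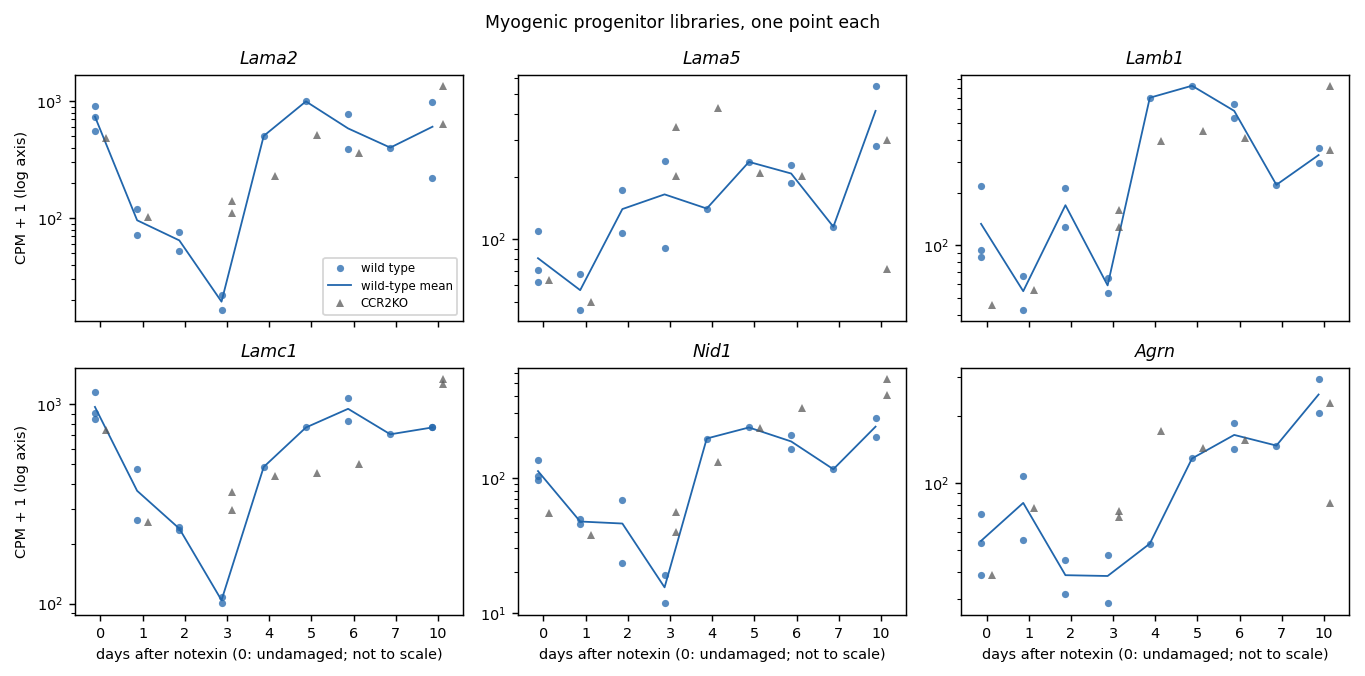
Levels in MP libraries by day after notexin (CPM + 1, log axis; circles are wild-type libraries, triangles CCR2KO libraries, the line joins wild-type means). Lama2 drops from 559 to 918 CPM undamaged to 15.5 to 21.2 CPM on day 3. The single library of day 5, called doubtful for its label code, holds 996 CPM.

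In pericytes no member was called in either window. Lamb2 was 2993 and 3927 CPM in the 2 undamaged libraries and 1345 to 2789 CPM in the 5 of days 1 to 3 (log2 fold change -1.13, SE 0.48, adjusted p = 0.647), all below the undamaged ones. Lamb1 was 71.8 and 89.2 CPM undamaged and 263 to 895 CPM on days 5 and 10 (log2 fold change 2.61, SE 0.86, adjusted p = 1) and Nid1 was 105 and 152 CPM undamaged and 417 to 1394 CPM on those days (log2 fold change 2.51, SE 0.76, adjusted p = 1). Of all genes, 0.00661% were called on days 1 to 3 and 0% on days 5 to 10, and at an unadjusted p under 0.05 the members numbered 3 and 4 (none called by DESeq2). Over all days none varied past the test (0.119% of all genes did; Nid1 alone at an unadjusted p under 0.05, and none by DESeq2). Without day 3 library 2, 1 was called lower on days 1 to 3. The 6 FAP markers summed to 599 and 519 CPM in the undamaged libraries and to between 2327 and 5898 CPM in the 3 of days 5 and 10. Their part in the Lamb1 and Nid1 values was not tested.

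Inflammatory cells stayed low. Their 27 libraries ranged from 0.145 to 32.2 CPM (median 4.55) of Lama2 and 1.26 to 155 CPM (median 18.7) of Nid1. No member was called on day 1 (19% of all genes called), day 3 (17%), days 4 to 7 (19.9%) or days 10 to 14 (0.44%), with 0, 2, 0 and 1 at an unadjusted p under 0.05 and 0, 1, 0 and 0 called by DESeq2. Across days 8 of 10 varied (32.6% of all genes), and Lamc1 (adjusted p = 0.16) and Nid2 (0.0627) did not pass. The smallest of these p-values was that of Hspg2 (adjusted p = 0.0024), which held 5.28 at the lowest, 19.2 at the median and 33.8 CPM at the highest on day 2 and 62.1, 273 and 855 CPM on day 7. These days did not overlap, and the 2 undamaged libraries lay apart, at 18.7 and 125 CPM. The 6 FAP markers summed to 28.7 to 51.2 CPM on day 2 and to 405, 1472 and 120.4 CPM in the 3 libraries of day 7, and the 6 endothelial markers to 45.2 to 133 CPM and to 1169.9, 128 and 227 CPM. The part of these cells in the Hspg2 values was not tested. Without the doubtful libraries 2 members varied across days, and without day 7 library 1 5 did.

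Within the pairs of related chains, the mean share of Lamb2 among beta chains and of Nid1 among nidogens was lower on day 3 than in undamaged FAP and EC. As a share of Lamb1 and Lamb2 counts per kb of exon, Lamb2 was 67.2% ± 9.5 (SD, n = 3) in undamaged FAP and 42.3% ± 14.2 (n = 6) on day 3. In EC it was 84.8% ± 1.6 (n = 4) undamaged and 59.3% ± 12.9 (n = 5) on day 3. In MP it was 80.6% ± 2.2 (n = 3) undamaged. On day 3 it was 62.5% in library 1, which is doubtful, and 70.1% in library 2. The single library of day 4, with 51.6% of its counts outside genes, held 11.5%. That of day 5, which is doubtful, held 16.3%. The libraries of day 6 held 40.8% and 55.2% and that of day 7 held 66.9%. Pericytes had a share of 73.3% to 98.9% with a median of 92.1% over 10 libraries.

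The log2 ratio of Lamb2 to Lamb1 changed by -1.56 in FAP between days 0 and 3 and by -1.93 in EC, without overlap of libraries in either (exact permutation tests, two-sided, p = 0.0238 and 0.0159). The ratio of Nid2 to Nid1 changed by 1.86 in FAP and by 0.81 in EC, and that of Lama4 to Lama2 by 1.94 in FAP, again without overlap (exact permutation p = 0.0238, 0.0159 and 0.0238). These p-values are the smallest that 6 against 3 and 5 against 4 libraries allow. Over the 20 ratio comparisons computed the adjusted p-values of these 5 were 0.0952, so none passed after correction. By days 10 and 14 the FAP ratios overlapped the undamaged ones (Lamb2 to Lamb1 -0.91, exact permutation p = 0.25). In EC the ratios of Lamb2 to Lamb1 (-1.38) and of Nid2 to Nid1 (1.00) on those days did not overlap the undamaged ones (exact permutation p = 0.0571 for each, the smallest that 3 against 4 libraries allow, adjusted p = 0.114).

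**Figure D4:**
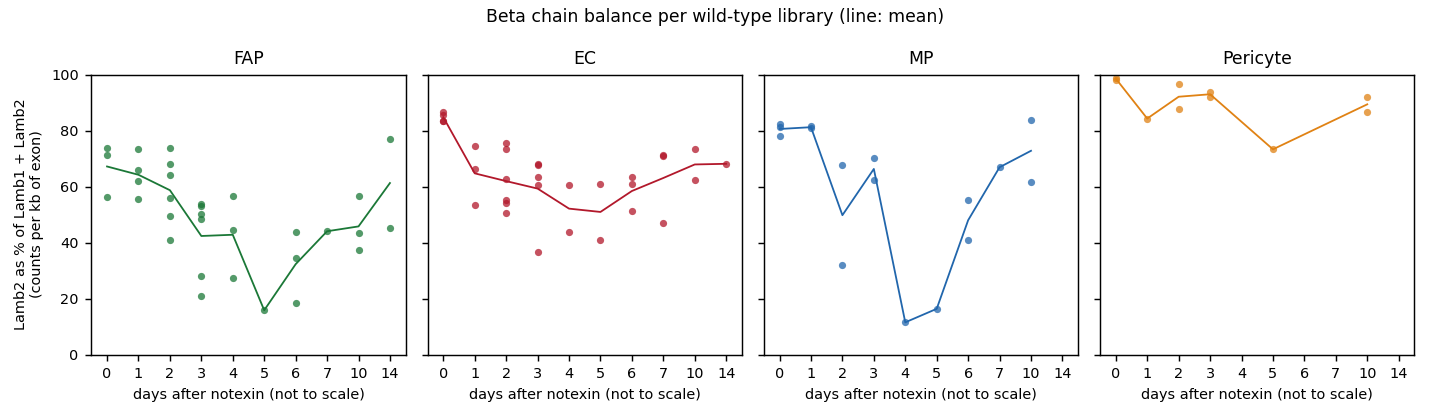
Lamb2 as a percentage of Lamb1 and Lamb2 together (counts per kb of exon) in each wild-type library by day after notexin, 1 panel per population (points are libraries, lines join means). The means of FAP, EC and MP are 67.2%, 84.8% and 80.6% undamaged, and pericytes hold 73.3% or more. The single MP library of day 4, with 51.6% of its counts outside genes, holds 11.5%.

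In total muscle, Lama2 and Lamb2 were lower and Lamc1 higher on day 1, Lamb2 was lower and Lamb1 and Nid2 higher on day 3, and most members were higher from day 4 on. In such bulk samples fewer cells of a type and less RNA per cell cannot be told apart. Lamb2 was 249.8 and 253 CPM in the 2 undamaged libraries, 189 and 191 CPM on day 1 and 173 and 194 CPM on day 3, below the undamaged ones (log2 fold change -1.18, SE 0.13, adjusted p = 3.4e-07 on day 1; log2 fold change -1.15, SE 0.13, adjusted p = 6.03e-07 on day 3). Lama2 was 50.7 and 50.8 CPM undamaged, 43.5 and 53.0 CPM on day 1 and 85.2 to 125 CPM in the 9 libraries of days 4 to 7, all above day 0 (log2 fold change 0.78, SE 0.10, adjusted p = 6.27e-06). Lamb1 was 30.7 and 31.03 CPM undamaged and 44.0 to 130.1 CPM on days 4 to 7 (log2 fold change 1.00, SE 0.17, adjusted p = 0.000101), and Nid1 was 77.8 and 80.2 CPM and 108 to 307 CPM (log2 fold change 0.85, SE 0.16, adjusted p = 0.000193). For both, the groups did not overlap.

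Lama5 was lower from day 4 on by the test, though its levels in CPM overlapped. It was 58.2 and 65.2 CPM undamaged, 33.0 to 79.6 CPM on days 4 to 7 and 21.3 to 67.2 CPM on days 10 and 14 (log2 fold change -0.42, SE 0.14, adjusted p = 0.0199; log2 fold change -0.59, SE 0.16, adjusted p = 0.0117). Both calls were lost without undamaged library 2 (-0.33 and -0.50), and that of days 4 to 7 also with library totals as the scale (-0.11, adjusted p = 0.629 by edgeR). Nid2 rose on day 3 (log2 fold change 0.89, SE 0.21, adjusted p = 0.00128) and stayed higher on days 10 to 14 (log2 fold change 0.93, SE 0.20, adjusted p = 0.00217), from 12.7 and 12.8 CPM undamaged to 15.8 to 33.4 CPM. In all, 1 member was higher and 2 lower on day 1 (67.1% of all genes called, 34.9% higher and 32.2% lower), 2 higher and 1 lower on day 3 (65.9%, 34.2% and 31.7%), 7 higher and 2 lower on days 4 to 7 (55.5%, 28.9% and 26.6%; median 0.57 against 0.04 over all genes) and 6 higher and 1 lower on days 10 to 14 (26.5%, 14.5% and 12%; 0.59 against 0.04). All 10 varied over days, as did 92.7% of all genes.

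These early estimates depend on the scale. The 6 myofibre markers summed to 158956 and 159425 CPM in the undamaged muscles and to 74033 and 87305 CPM on day 1, and with library totals alone as the scale the median of all genes moved up by 0.774 (log2) on day 1, 0.695 on day 3 and 0.305 on days 4 to 7. On that scale 7 members were higher and 1 lower on day 1 and 9 higher and 1 lower on day 3, Lama2 was level on day 1 (-0.07), and Lamb2 turned from -0.29 to 0.02 on days 4 to 7, while its fall on days 1 (-0.41) and 3 (-0.46) was still called. Without undamaged library 2, 5 members were called on days 4 to 7, and leaving out a library of day 5 or the first of day 6 gave 5 on day 1. The part of the myofibre share in the estimates was not tested.

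**Figure D5:**
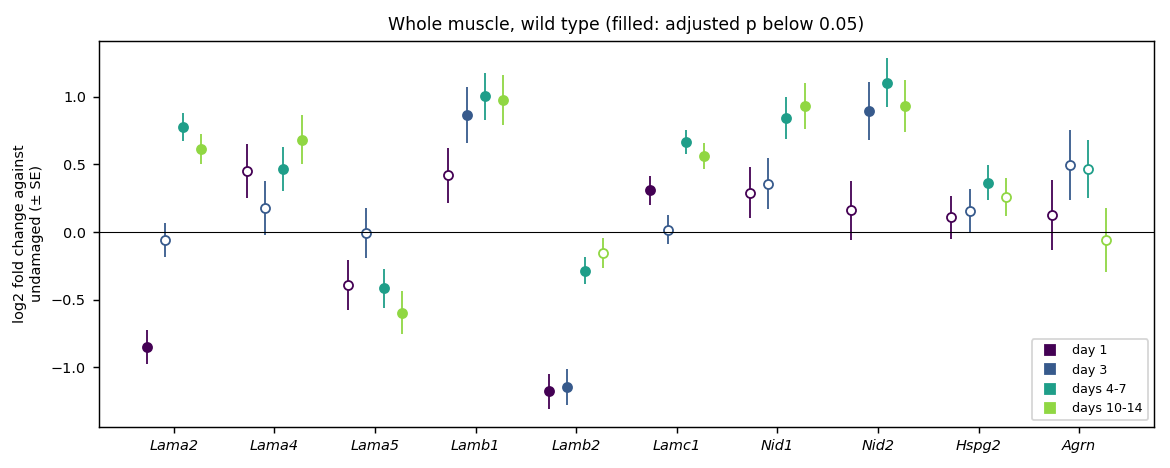
Log2 fold change of each of the 10 genes in total muscle against undamaged muscle in 4 windows of days (points are edgeR estimates, bars are ± SE, filled points have an adjusted p below 0.05). Lamb2 stands at -1.18 on day 1 and -1.15 on day 3, and Lamb1, Nid1 and Nid2 stand at 0.85 or more on days 4 to 7.

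CCR2KO FAP held less of 4 members than wild-type FAP over the 10 shared days. Lama2 (log2 fold change -0.73, SE 0.18, adjusted p = 0.00701), Lamb2 (log2 fold change -0.81, SE 0.22, adjusted p = 0.0169), Lamc1 (log2 fold change -0.49, SE 0.15, adjusted p = 0.0433) and Nid1 (log2 fold change -0.51, SE 0.14, adjusted p = 0.0219) were lower, with day means lower in CCR2KO on 8, 9, 9 and 8 of the 10 days. No member was called higher (7.3% of all genes called, 4.63% lower; median of the members -0.30 against -0.03 over all genes). The genotype difference did not change with day past the test for any of the 10 (1.92% of all genes called; 2 members at an unadjusted p under 0.05 and 2 called by DESeq2).

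Of the called genes, Lamb2 had the largest estimate. The single CCR2KO libraries of days 4, 5 and 6 held 128 CPM, 106 CPM and 88.7 CPM, where wild-type libraries held 266, 569 and 797 CPM, 222 CPM and 316, 490.2 and 747 CPM. Undamaged levels overlapped, at 939 and 1459.6 CPM against 1111, 1153 and 1493 CPM. For Lama2 the same 3 CCR2KO libraries held 329 CPM, 244 CPM and 236 CPM against 389, 615 and 645 CPM, 886 CPM and 671, 795 and 1068 CPM in wild type. In each of these days the CCR2KO library lay below all wild-type ones for both genes. The CCR2KO library of day 4 and the wild-type library of day 5 are doubtful, as their label codes name another day.

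The 4 calls rest on few libraries. Leaving out the CCR2KO library of day 6 left 0 calls, that of day 4 1 call, and that of day 5 or the wild-type library of day 5 2 calls. Each was the only library of its genotype on that day, so the whole day left the fit for both genotypes. Lamc1 was lost in 26 single-library omissions (-0.52 to -0.39). Without the doubtful libraries 0 were called, with estimates of -0.58 for Lama2, -0.65 for Lamb2, -0.46 for Lamc1 and -0.40 for Nid1. Days 4 and 5 were not in that fit, as their only CCR2KO or wild-type library is doubtful. Among libraries without the R52 tag, which 16 of 18 CCR2KO and 17 of 32 wild-type FAP libraries lack, the mean day differences were -0.91 for Lama2, -0.65 for Lamb2, -0.48 for Lamc1 and -0.59 for Nid1. With the tag as a covariate in edgeR, Lama2 (-0.72) and Nid1 (-0.49) were still called lower. Lamb2 (-0.67, adjusted p = 0.0716) and Lamc1 (-0.41, adjusted p = 0.129) were not. Of the other basement membrane genes in FAP, 8 of 15 were lower in CCR2KO and 1 higher, among them Col4a2 (-0.77) and Col15a1 (-0.72), with Smoc1 higher (1.44).

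In EC and MP no member was called by genotype (0.0694% and 0.0648% of all genes called; 2 and 0 members at an unadjusted p under 0.05, and 1 and 0 by DESeq2). The largest EC estimate was that of Lama2 (log2 fold change -1.65, SE 0.57, adjusted p = 0.23), whose highest wild-type levels stood in the libraries with the most FAP markers. By day, 0 members were called in either (0% and 0.0583% of all genes; 0 and 5 members at an unadjusted p under 0.05, 3 by DESeq2 in MP). Whether the genotype difference itself differs between FAP and the other populations was not tested.

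Across the 45 wild-type groups of population and day, Lama5 stood apart from most of the other members. The Pearson correlation of log2(mean CPM + 1) was 0.94 between Lamb1 and Nid2, 0.93 between Lamb1 and Lamc1, and 0.82 between Lama5 and Agrn, while Lama5 with each of the other 8 lay between 0.07 and 0.49. Among 13067 genes, those most like each member were, for Lama2, Antxr1 (0.96) and Sdc2 (0.95); for Lama4, Fbln2 (0.96) and Meox2 (0.95); and for Lama5, Mmp15 (0.97) and Bcam (0.96). Those of Lamb1 were Sparc (0.96) and Fkbp9 (0.95), those of Lamb2 Tgfb1i1 (0.96) and Cbx6 (0.96), and those of Lamc1 Pam (0.97) and Fkbp9 (0.96). Nid1 was most like Fstl1 (0.95) and Sparc (0.94), Nid2 like Pcdhga3 (0.95) and Sparc (0.94), Hspg2 like Npdc1 (0.97) and Amotl1 (0.96) and Agrn like Oaz2 (0.93). Many groups are days of the same population, and the groups differ in depth, so these values describe the profile and carry no test.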

How the data were processed

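RNA-seq counts per gene were taken as deposited by the authors in 9 tables, 178 libraries in all; per the submitters' processing notes, bcl2fastq, STAR and Bowtie were used with build mm10, and the counting tool, its annotation and its strand setting are not stated there. Per the labels' protocols, libraries were made with a stranded mRNA kit and sequenced as paired reads of 43 bases. Rows that name no gene (3.09% to 57% of counts without a feature, 0.245% to 1.78% ambiguous) were left out of totals. Columns were matched to samples by name, and the 2 EC columns of day 5 that carry no usable number are known only by their group. No 2 libraries of a group agreed within sampling noise (chi-square per gene 2.59 at the lowest and 112 at the median of 169 pairs).

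CPM are counts scaled to a gene-count sum of 1000000 per library, and per kb values divide by the union exon length of GENCODE M21. Fold changes come from edgeR 4.0.16 (R 4.3.3): TMM scaling, filterByExpr, quasi-likelihood F test, Benjamini-Hochberg adjustment over all genes tested, called at an adjusted p below 0.05. Each fit had 1 mean per group of population, genotype and day, and contrasts weighted the days of a side equally; population fits held the days all 5 share, time fits all days of 1 population, and genotype fits the days both genotypes share. Chain ratios used 0.5 counts added and two-sided exact permutation tests (SciPy 1.17.1) with adjustment over 20 tests. The edgeR fit was tested on simulated data. Alternatives were other scaling, no filter, DESeq2 1.42.0, covariates, blocks and left-out libraries. A library was called doubtful on the grounds given above.

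The members, gene lists and tests were chosen with earlier results of these data known. All members are described; of the 55 genes in 5 other lists, values are given for up to 4 per list and comparison that were called and reached 10 CPM in the higher group, taken in order of the size of their log2 fold change. Genes most alike are the 2 with the highest Pearson r over the groups. A few genes that these rules name are not reported here.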

Additional observations from a re-analysis of the deposited data

Results flagged for a closer look

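Within groups of 4 to 10 wild-type libraries, 17 of 90 checks of 1 member in 1 group had a library far from its neighbours relative to the group's range, in 9 libraries, where chance flags about 1 in 20 groups. Most were in EC. Library 5 of EC day 3 was the highest of its group in Lama2 (289 CPM), Lamb1 (1050 CPM), Lamc1 (1154 CPM), Nid1 (1726 CPM) and Nid2 (529.3 CPM), and its FAP markers summed to 5654 CPM. Library 6 of EC day 2 was the highest in Lama2 (113.8 CPM), Lamb1 (819.6 CPM), Lamc1 (1392 CPM) and Nid2 (255.7 CPM), with FAP markers at 1027 CPM. Library 2 of undamaged EC held 201 CPM of Lama2, with FAP markers at 4101 CPM. Library 1 of EC day 2 was the highest in Lama5 (796.4 CPM) and library 2 of EC day 3 in Lamb2 (529.8 CPM). Library 4 of FAP day 1 held the most Lamb2 (782.7 CPM). Among inflammatory cells, library 3 of day 1 was the highest in Lamb1 (134.4 CPM) and Lamc1 (200.2 CPM), library 1 of day 2 in Lama5 (4.796 CPM), and library 1 of day 3 the lowest in Nid2 (4.791 CPM). The part of other cells in these values was not tested.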

How the results depend on the processing

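Each count of called members was recomputed under other settings, 2 of them chosen after seeing the data: leaving out libraries with over 40% of counts outside genes, and scaling by library totals alone. Of these counts, 241 stayed within 1.5 times of the reported one and 54 moved; of the fold changes of called members, 669 kept direction and call, 61 lost the call and 1 reversed. With DESeq2, the counts were 3 in FAP days 4 to 7, 2 in EC day 1, 4 over days in EC, 5 in MP day 1, 4 in MP day 10, 1 in inflammatory day 3, 2 for genotype by day in FAP, 1 for genotype in EC and 3 for genotype by day in MP. With the R52 tag as a covariate they were 1 higher in MP against other populations, 2 in FAP days 4 to 7, 1 in EC days 4 to 7, 0 over days in EC, 0 in MP day 10 and 2 for genotype in FAP. With RLE scaling they were 1 in EC days 4 to 7 and 1 over days in EC. With the compared days alone in the fit they were 7 in FAP day 1, 0 in EC day 3, 5 in MP day 1, 5 in MP days 4 to 7, 0 in MP day 10, 7 in total muscle day 1 and 5 on day 3. With library totals they were 1 in FAP days 4 to 7, 1 in EC day 3, 1 in EC days 4 to 7, 0 over days in EC, 2 in inflammatory day 3, 8 in total muscle day 1 and 10 on day 3, and Lamb2 in total muscle on days 4 to 7 reversed to 0.017. Outside total muscle, library totals moved the median of all genes by 0.1 or more in 15 comparisons, the largest shift being -0.427 (inflammatory cells, day 1). Without a filter they were 0 over days in EC, 2 in MP day 10 and 5 in total muscle day 1. With the shared label code as a block, over the libraries that carry one, they were 1 in MP and 4 in pericytes. Without doubtful libraries they were 6 in MP day 1, 0 in MP day 10, 2 over days in inflammatory cells and 0 for genotype in FAP. Without libraries over 40% outside genes they were 0, 2, 0 and 0 in the MP windows and 3 over days in MP. The causes were not tested.

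Libraries with the same replicate number had median correlations of -0.07 to 0.184 over the fits, and other pairs -0.184 to 0.034. The highest was in pericytes (0.184 against -0.184), where 6 of 12 same-number pairs lay above 0.1. Each pericyte day used there had 2 libraries, so the values of same-number and other pairs mirror each other. The numbers were not taken as pairs in the main fits. With a replicate block the counts were 2 in FAP day 3, 2 in FAP days 4 to 7, 1 in EC day 1, 1 in EC day 3, 1 in MP day 1, 1 in MP days 4 to 7, 0 in MP day 10, 2 over days in inflammatory cells and 0 for genotype in FAP. For that genotype comparison, fitted over the 27 libraries with a number in the title, the log2 estimates were -0.45 for Lama2, -0.24 for Lamb2, -0.19 for Lamc1 and -0.27 for Nid1. These libraries cover days 0, 1, 3 and 10 alone. The estimates therefore differ from the main ones in the days held as well as in the block.

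In the comparisons between populations single omissions were run for the 10 pericyte libraries alone, and the counts ranged from 1 to 2 higher in MP and 9 to 10 in pericytes. Leaving out the only pericyte library of day 1 or of day 5 took that day out for all populations. In the fits over days and genotypes each library was left out in turn. A day left with no library of 1 genotype dropped out of the genotype fit. In FAP the counts ranged from 2 to 5 (day 1), 2 to 4 (day 3), 0 to 4 (days 4 to 7) and 7 to 9 (over days). In EC they ranged from 0 to 1, 0 to 2, 1 to 2 and 0 to 3. In MP they ranged from 0 to 5 (day 1), 3 to 5 (day 3), 0 to 2 (days 4 to 7), 0 to 2 (day 10) and 6 to 8 (over days), in pericytes from 0 to 1 (days 1 to 3), and in inflammatory cells from 0 to 1, 0 to 1, 0 to 2 and 5 to 10. In total muscle they ranged from 2 to 5, 3 to 4, 5 to 10 and 5 to 7, and for genotype in FAP from 0 to 4. Single-library omissions reversed Nid2 in pericytes to -1.069 (other omissions up to 1.166). Among ratios not past the test on days 10 to 14, they reversed Lama5 to Lama2 in FAP (-0.115, -0.121, -0.177 and -0.141, others up to 0.906) and in EC (-0.099, others up to 1.406), and Lama4 to Lama2 in EC (-0.059, others up to 0.895). Several MP, pericyte and late-day groups held 1 or 2 libraries, which limits these comparisons.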
